A study of Mus musculus with 12 samples.

Results

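The genes described here make, take up, store, oxidise and export cholesterol. They were 37 genes of the 54532 in the deposited count table, chosen by symbol: 18 enzymes of sterol synthesis, 5 genes of the SREBP control of that synthesis, and 14 genes of cholesterol handling, of which 5 act in efflux and its control by the liver X receptors (LXR), 5 in uptake and lysosomal release, and 4 in oxysterol formation and storage. Whole spinal cord of C57BL/6 mice aged 2 to 3 months had been sequenced as total RNA in 12 libraries, 3 labelled biological replicates in each of 4 groups. Control mice were littermates labelled wt. The others were labelled Drd2mGFAP conditional knockout (cKO), a deletion of the dopamine D2 receptor gene under a driver named for GFAP, a gene of astrocytes; cells in which that driver is silent keep the gene, and cKO is used here for the labelled genotype. Each genotype was sampled without disease (basal) and on day 17 of experimental autoimmune encephalomyelitis (EAE), an induced immune attack on myelin, which the series calls its peak. The sources used here do not give the deleted exons, the Cre line, the immunisation or the litters. The series title names the question as the role of astrocytic DRD2 in inflammation of the central nervous system.

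The libraries held 15128913 to 17592105 counts. Library cKO basal 2 stood apart, with 17220 genes detected against 24303 to 26056 in the other 11 libraries and 5.68% of its counts on ribosomal protein genes against 0.879% to 1.80%. In library cKO EAE 3 the EAE response was weak: Cd74, an antigen presentation gene, stood at 6.84 CPM (counts scaled to the library total) there, at 345.3 to 2759 in the other 5 EAE libraries and at 0.727 to 3.18 in the basal ones. Results that rest on cKO basal 2 or cKO EAE 3 are given with and without them. Control basal 1 was the library with 24303 genes detected. It had 1.51% of its counts on ribosomal protein genes, against 0.905% and 0.938% in control basal 2 and 3. It was kept in the fits except where each library was left out. Xist, expressed from the inactive X chromosome of females, stood at 309 to 796 CPM in the 6 basal libraries and at 0.292 at most in the 6 EAE libraries, and the Y-linked Ddx3y at 0 and at 70.3 to 76.99 CPM, so that EAE and sex cannot be told apart in any comparison of EAE with basal. Drd2 (ENSMUSG00000032259, chromosome 9, 49340627 to 49408177, plus strand) was not lower in the cKO: its TMM-normalised level was 26.5, 19.4 and 19.7 CPM in the control basal libraries, 17.6, 33.4 and 34.7 in the cKO without disease, 8.89, 8.998 and 9.62 in control EAE and 6.73, 12.5 and 19.4 in cKO EAE. Cells without the driver keep the gene, and reads outside the deleted part would still be counted, so this checks the labels only weakly.

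Cholesterol of the central nervous system is made within it, since the blood-brain barrier keeps out the lipoproteins of the plasma, and most of it sits in myelin. When sterol in the endoplasmic reticulum is low, SCAP carries the SREBP factors to the Golgi to be cut and released, and they switch on the genes of synthesis; when sterol is plentiful, INSIG holds SCAP back. When cholesterol or its oxidised forms accumulate, LXR factors switch on genes of efflux, such as Abca1 and Apoe, and Mylip, which removes the LDL receptor. In demyelination, phagocytes take up myelin, free its cholesterol in the lysosome with LIPA, NPC1 and NPC2, and either export it or store it as esters made by SOAT1.

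The recognition sequences of both systems were looked for in the promoters, 250 bases before to 50 bases after each RefSeq start (build GRCm38.p6), on both strands. A window was found for 30 of the 37 genes, and none was used for Fdps, Fdft1, Sqle, Stard4, Abcg1, Lpl and Npc1. The sterol response element TCACNCCAC, the letters that SREBP binds, stood in 1.24% of all 32851 windows and among the 37 genes in Hmgcs1. The LXR element called DR4, 2 copies of NGGTNA on 1 strand with 4 bases between them, stood in 0.718% of all windows and in Abca1 and Srebf1. Of the 18 windows of sterol synthesis genes, 14 held a CCAAT box (ATTGG) and 15 a GC box (GGGCGG), against 37.4% and 35.7% of all windows. Among the 14 windows of handling genes these boxes stood in 6 and 7. A match is a description of the letters, and no match says only that they are not in this window. The 3 stretches that hold the elements are shown because they carry the letters by which the 2 systems are distinguished; the Abca1 and Srebf1 stretches were chosen after the matches were seen. Each is printed 5′ to 3′ on the strand of its gene, with the match in capitals, which for Abca1 and Srebf1 reads as the element on the opposite strand.
Hmgcs1, chr13:119690169-119690268, plus strand, 182 to 83 bases before the start: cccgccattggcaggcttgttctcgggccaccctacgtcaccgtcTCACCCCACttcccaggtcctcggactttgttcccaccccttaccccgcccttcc
Abca1, chr4:53159905-53160004, minus strand, 109 to 10 bases before the start: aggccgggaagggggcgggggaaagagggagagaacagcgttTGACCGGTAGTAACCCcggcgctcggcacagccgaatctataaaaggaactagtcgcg
Srebf1, chr11:60210596-60210695, minus strand, 224 to 125 bases before the start: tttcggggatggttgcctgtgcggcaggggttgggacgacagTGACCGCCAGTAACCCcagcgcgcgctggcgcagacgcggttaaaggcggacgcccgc
The Srebf1 stretch lies inside the counted span of the gene (chromosome 11, 60199089 to 60222581), before an internal start. Of these 3 genes only Abca1 was called in any comparison below, by the test named there.

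Per length of the gene, in TMM-normalised RPKM (CPM divided by the gene length of the deposited table in kilobases), Apoe was by far the most abundant of the 37 genes in control basal cord, at 667 (mean of 3 libraries). Hmgcs1, which makes the HMG-CoA from which mevalonate is formed, followed at 63.9, Insig1 at 44.6, Srebf2 at 31.1 and the lanosterol demethylase gene Cyp51 at 31.1. The handling genes apart from Apoe began with the sterol 27-hydroxylase gene Cyp27a1 at 24.3 RPKM. Soat1 stood at 4.90, Abca1 at 4.49 and Nr1h3 at 2.05, and at the low end were Fdps at 0.359, Lpl at 0.353 and Ch25h at 0.153. Fdps, an enzyme of the trunk of the pathway, had only 2 to 54 counts in any library. It shares 11.7% of its 50-base windows with other annotated genes, and the share was 45.9% for Acat2, 30.7% for Fdft1, 30.5% for Idi1, 13.6% for Hmgcs1, 13.1% for Scap and 8.22% for Ch25h, so that their counts are uncertain. Fdft1, Cyp51, Srebf1 and Npc1 also overlap a gene on the opposite strand (Ctsb, Akap9, Rai1 and Rmc1), and without a known strand setting the reads of each pair cannot be told apart. In cKO basal 2, 12 of the 18 synthesis genes lay more than 2-fold outside the range of the other 5 basal libraries, 6 above it and 6 below it, as did 46.2% of all genes tested. Fdft1, for example, stood there at 693 CPM, where cKO basal 1 and 3 had 107 and 95.8, and Nsdhl at 0.819 against 33.7 and 30.8.

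In control mice, 8 of the 14 handling genes rose at EAE and 0 of the 23 genes of synthesis and SREBP control changed, by edgeR's quasi-likelihood F test in a fit of all 12 libraries (a gene is called at a Benjamini-Hochberg adjusted p below 0.05 over all genes tested, 0.05 being the threshold throughout). Over all 18601 genes tested, 12.1% rose and 5.05% fell. The genes that rose were the efflux pump Abca1, the LXR factor Nr1h3, the lipase Lpl, the LDL receptor ligase Mylip, the lysosomal Npc2 and Lipa, the cholesterol 25-hydroxylase Ch25h and the esterifying enzyme Soat1. Of these, Ch25h could only be called as a rise, since it passed the filter on low counts through the EAE libraries alone. The median log2 fold change was 1.26 over the 14 handling genes, -0.14 over the 18 synthesis genes, 0.032 over the 5 SREBP control genes and -0.0065 over all genes. A gene that was not called may still have changed. In a fit of the control libraries alone, 2 synthesis genes rose, 3 synthesis genes fell and 1 SREBP control gene fell, with 45.6% of all genes called. Levels from here on are TMM-normalised CPM, in the order of replicates 1, 2 and 3, and differences are log2 fold changes.

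Abca1 (ENSMUSG00000015243, chromosome 4, 53030787 to 53159895, minus strand) encodes the pump that loads cholesterol onto apolipoproteins. It stood at 38.98, 49.6 and 51.1 CPM in control basal, 56.01, 35.3 and 57.7 in basal cKO, 373, 347 and 228 in control EAE and 104, 176 and 59.3 in cKO EAE. The 3 control EAE libraries were the highest of the 12, the cKO EAE libraries came next, and cKO EAE 3 nearly reached the basal level. In control mice Abca1 rose 6.79-fold at EAE (log2 fold change 2.76, SE 0.387, adjusted p = 0.00318). The related pump Abcg1, which exports to lipoprotein particles, differed by 0.11 (95% interval -0.63 to 0.85) and was not called, at 63.05 ± 9.12 and 68.2 ± 11.6 CPM (SD, n = 3).

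Apoe (ENSMUSG00000002985, chromosome 7, 19696109 to 19699188, minus strand), the main lipoprotein component of the brain, stood at 1622, 1309 and 1348 CPM in control basal, 1143, 3023 and 917 in basal cKO, 3994, 2405 and 1242 in control EAE and 1135, 1617 and 1040.03 in cKO EAE. Control EAE 1 was the highest library, but control EAE 3 lay below the control basal libraries, so that the groups overlap. The difference in control mice was 0.84 (SE 0.49, adjusted p = 0.308) and was not called. Without cKO basal 2 and cKO EAE 3 in the fit it was 0.84 (SE 0.317, adjusted p = 0.0462), past the threshold, as 45.8% of all genes then were.

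Of the LXR genes, Nr1h3 (ENSMUSG00000002108, chromosome 2, 91184061 to 91202834, minus strand) encodes LXR alpha, the form of macrophages and liver. Its level was 6.04, 4.64 and 4.81 CPM in control basal, 5.64, 8.10 and 3.995 in basal cKO, 12.5, 9.59 and 9.50 in control EAE and 7.59, 6.53 and 4.25 in cKO EAE, and the control groups did not overlap. It rose 2.04-fold in control mice (log2 fold change 1.03, SE 0.319, adjusted p = 0.049). Nr1h2, the widely expressed LXR beta, differed by 0.18 (SE 0.36) and was not called.

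Among the uptake and lysosomal genes, 4 of 5 rose in control mice. Lpl (ENSMUSG00000015568, chromosome 8, 68880491 to 68907448, plus strand), a lipase that frees fatty acids from lipoproteins, stood at 4.07, 3.76 and 3.26 CPM in control basal, 3.32, 11.4 and 2.39 in basal cKO, 14.6, 17.5 and 13.7 in control EAE and 8.16, 15.1 and 3.10 in cKO EAE. It is a low gene here, with 59 to 68 counts in a control basal library and 235 to 295 in a control EAE library, and it rose 4.12-fold (log2 fold change 2.04, SE 0.628, adjusted p = 0.0467). Mylip (ENSMUSG00000038175, chromosome 13, 45389742 to 45412022, plus strand) encodes the ubiquitin ligase, also called IDOL, that sends the LDL receptor to degradation. It stood at 11.1, 10.6 and 9.89 CPM in control basal, 8.78, 4.002 and 9.42 in basal cKO, 43.4, 32.7 and 29.6 in control EAE and 19.7, 27.6 and 11.1 in cKO EAE, with the control EAE libraries the 3 highest of the 12. In control mice it rose 3.34-fold (log2 fold change 1.74, SE 0.377, adjusted p = 0.0102).

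NPC2 binds the cholesterol freed in the lysosome and hands it to NPC1 in the membrane. Npc2 (ENSMUSG00000021242, chromosome 12, 84754562 to 84773152, minus strand) stood at 125, 108 and 102 CPM in control basal, 94.5, 231 and 81.8 in basal cKO, 420.3, 295 and 248 in control EAE and 156, 230.3 and 73.7 in cKO EAE. It rose 2.88-fold in control mice (log2 fold change 1.53, SE 0.462, adjusted p = 0.0441), while Npc1 differed by 0.42 (SE 0.66, adjusted p = 0.756) and was not called. Lipa (ENSMUSG00000024781, chromosome 19, 34492318 to 34527474, minus strand) encodes the acid lipase that splits cholesteryl esters. Its level was 30.5, 28.3 and 24.4 CPM in control basal, 33.1, 9.10 and 31.5 in basal cKO, 105, 79.1 and 65.02 in control EAE and 44.8, 50.2 and 33.4 in cKO EAE, and every control EAE library lay above every other one. Lipa rose 2.995-fold in control mice (log2 fold change 1.58, SE 0.408, adjusted p = 0.0224).

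The oxysterol and storage genes split by direction. Ch25h (ENSMUSG00000050370, chromosome 19, 34473786 to 34475135, minus strand) makes 25-hydroxycholesterol, an oxysterol that macrophages secrete in response to interferon, and its gene lies beside Lipa on chromosome 19. It had 8, 2 and 0 counts in the control basal libraries, 7, 0 and 4 in cKO basal, 244, 359 and 557 in control EAE, and 169, 202 and 36 in cKO EAE. The corresponding levels were 0.509, 0.11 and 0 CPM, 0.407, 0 and 0.239, 14.1, 21.3 and 32.5 and 9.72, 12.1 and 2.19. Every EAE library lay above every basal one, and the control EAE libraries above the cKO EAE ones. The log2 fold change in control mice was 6.78 (SE 1.06, adjusted p = 0.00319). Its size rests on the few basal counts, and its 95% interval ran from 4.44 to 9.12. With so few basal counts in both genotypes, Ch25h was tested only because of its EAE libraries, and a fall could not have been called. Soat1 (ENSMUSG00000026600, chromosome 1, 156424525 to 156474331, minus strand), whose enzyme esterifies cholesterol for storage in droplets, stood at 46.2, 48.6 and 49.2 CPM in control basal, 52.5, 32.02 and 50.7 in basal cKO, 161, 123 and 122 in control EAE and 72.6, 86.3 and 52.8 in cKO EAE. It rose 2.82-fold in control mice (log2 fold change 1.49, SE 0.243, adjusted p = 0.00331).

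The calls of the 8 genes were not equally firm. Abca1, Ch25h and Soat1 were called on leaving out any 1 of the 12 libraries. Mylip was lost without control basal 3 (adjusted p = 0.0504), and Lipa without control basal 1, 2 or 3 or control EAE 1 or 2 (adjusted p up to 0.0986). Npc2 and Lpl were lost without any of the 6 control libraries or cKO EAE 1 (adjusted p up to 0.185 and 0.151), and Nr1h3 without any control library, cKO basal 1, cKO EAE 1 or cKO EAE 2 (up to 0.229). The number of handling genes called ran from 3 to 10 over these fits, and that of all genes from 1724, without control basal 3, to 8166, without cKO basal 2. With the 6 control libraries alone 8 handling genes rose and 2 fell.

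The other sterol hydroxylase genes of this class, Cyp46a1 and Cyp27a1, were lower in every control EAE library than in any control basal one. Cyp46a1 (ENSMUSG00000021259, chromosome 12, 108334381 to 108362234, plus strand), the neuronal 24-hydroxylase by which the brain clears cholesterol, stood at 62.7, 61.1 and 62.99 CPM in control basal, 55.3, 28.2 and 64.7 in basal cKO, 34.7, 35.6 and 35.9 in control EAE and 36.7, 41.5 and 61.1 in cKO EAE. The control groups were tight and did not overlap, but the difference of -0.81 (SE 0.287, adjusted p = 0.0801) was not called with all 12 libraries. In a fit of the 6 control libraries alone it was -0.82 (SE 0.104, adjusted p = 0.000211). Cyp27a1 (ENSMUSG00000026170, chromosome 1, 74713574 to 74737892, plus strand) stood at 51.4, 52.4 and 54.6 CPM in control basal, 47.7, 13.3 and 34.9 in basal cKO, 42.00, 32.1 and 24.1 in control EAE and 58.9, 43.4 and 45.2 in cKO EAE. Its difference was -0.69 (SE 0.38, adjusted p = 0.275) with all libraries and -0.69 (SE 0.183, adjusted p = 0.0127) with the 6 control libraries alone.

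**Figure D1:**
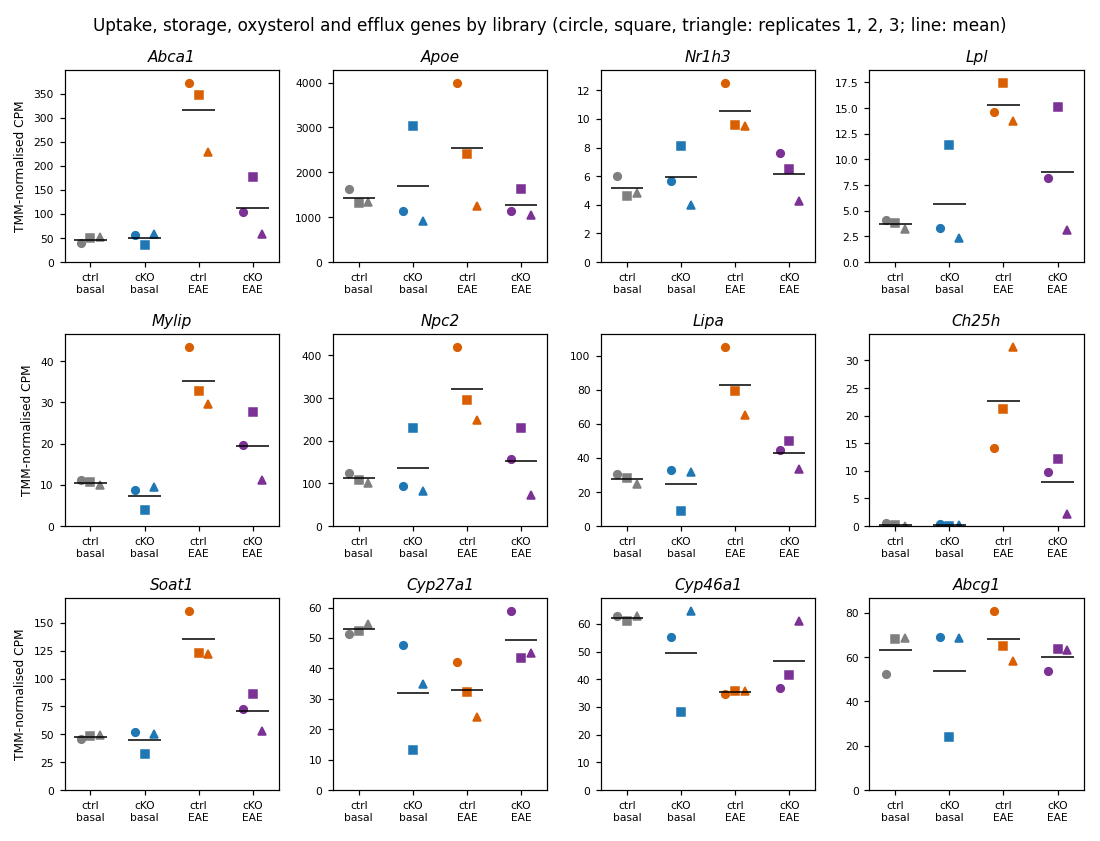
Levels of 12 handling genes in TMM-normalised CPM (linear axes from 0) in the 4 groups; circle, square and triangle are replicates 1, 2 and 3 and the line is the group mean. Abca1, Mylip, Lipa, Ch25h and Soat1 are highest in the 3 control EAE libraries, cKO EAE 3 lies near the basal levels of Abca1 and Soat1, and Cyp46a1 is lower in the control EAE libraries than in the control basal ones.

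None of the 18 synthesis genes was called in control mice with all 12 libraries, and their signs were mixed, 6 positive and 12 negative. Their log2 fold changes ran from -0.55 (Pmvk) to 0.76 (Fdps), with SEs of 0.16 to 0.78 and adjusted p of 0.146 to 0.963. At an unadjusted p below 0.05 there were 1 of 18 and 0 of the 5 SREBP control genes, against 5323 of all 18601 genes. DESeq2's Wald test called 1 of the 23 genes, against 24.1% of all genes. Limma voom with sample weights called 7 of the 23, against 59.8% of all genes. The 95% intervals of the edgeR fit reached from -1.96 to 2.14 at their widest, which is how far that fit leaves the size of a change unresolved. Leaving out cKO basal 2, which belongs to neither control group but enters the shared estimate of spread, gave 4 calls among the 23 genes, as 42.9% of all genes were then called.

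In the fit of the 6 control libraries alone, SEs of the synthesis genes fell to between 0.11 and 0.41, and 6 of the 23 genes were called, against 45.6% of all genes. Early enzymes of the pathway did not share a direction. Pmvk, the phosphomevalonate kinase (ENSMUSG00000027952, chromosome 3, 89454541 to 89469013, plus strand), stood at 35.5, 28.3 and 28.7 CPM in control basal and 26.2, 21.2 and 15.9 in control EAE and fell (log2 fold change -0.55, SE 0.188, adjusted p = 0.0391). Mvd, the next enzyme (ENSMUSG00000006517, chromosome 8, 122433601 to 122443422, minus strand), stood at 26.1, 24.8 and 25.4 and 42.8, 31.6 and 34.6 CPM and rose (log2 fold change 0.51, SE 0.139, adjusted p = 0.0137). Acat2 (ENSMUSG00000023832, chromosome 17, 12942890 to 12960747, minus strand), the cytosolic thiolase that starts the pathway, stood at 66.9, 61.4 and 51.2 and 36.7, 43.4 and 45.8 CPM and fell (log2 fold change -0.51, SE 0.141, adjusted p = 0.015). In each of these 3 genes the control groups did not overlap. In the same fit 10 of 12 oligodendrocyte markers and 8 of 8 neuron markers fell.

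Later steps were as mixed. Tm7sf2, a sterol reductase (ENSMUSG00000024799, chromosome 19, 6062821 to 6077197, minus strand), stood at 26.01, 22.8 and 24.2 CPM in control basal and 17.5, 18.7 and 19.7 in control EAE and fell (log2 fold change -0.39, SE 0.125, adjusted p = 0.0311). Ebp, the sterol isomerase (ENSMUSG00000031168, chromosome X, 8185329 to 8193512, minus strand), stood at 24.2, 19.8 and 21.00 and 31.9, 27.6 and 26.4 CPM and rose (log2 fold change 0.40, SE 0.136, adjusted p = 0.0366); the gene is on the X chromosome, and EAE and sex cannot be told apart in this comparison. Insig1 (ENSMUSG00000045294, chromosome 5, 28071363 to 28078662, plus strand), the endoplasmic reticulum anchor that is itself an SREBP target, stood at 136, 140.5 and 137 and 83.9, 101 and 112 CPM and fell (log2 fold change -0.48, SE 0.132, adjusted p = 0.0146). The other SREBP control genes of smallest p, Srebf1 and Stard4, a carrier of cholesterol inside the cell, differed by 0.21 and -0.09 and were not called. Srebf1 stood at 129.8, 134 and 122 CPM in control basal and 159, 157 and 131 in control EAE, and Stard4 at 51.3, 51.04 and 52.7 and 45.1, 45.9 and 54.8, with overlapping groups.

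The other synthesis genes were not called in either fit. At the head of the pathway, Hmgcs1 stood at 294 ± 45.1 CPM in control basal and 238 ± 47.4 in control EAE (mean ± SD, n = 3, here and for the synthesis genes that follow), and the mevalonate kinase gene Mvk at 30.04 ± 1.41 and 27.9 ± 2.83. The isoprenoid genes Idi1, an isomerase, and Fdps stood at 37.02 ± 4.97 and 40.3 ± 11.2 and at 1.51 ± 0.641 and 2.58 ± 0.984 CPM. Fdft1, the squalene synthase gene, stood at 119 ± 24.2 and 94.8 ± 14.3 CPM. Squalene is then oxidised and closed to lanosterol by the products of Sqle, at 97.7 ± 5.77 and 90.4 ± 17.1 CPM, and Lss, at 58.5 ± 12.3 and 60.5 ± 11.3. All of these groups overlapped.

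Lanosterol is stripped of methyl groups by the products of Cyp51, at 137 ± 25.00 CPM in control basal and 119 ± 22.6 in control EAE, Msmo1, at 125 ± 32.3 and 106 ± 26.1, Nsdhl, at 32.2 ± 2.83 and 29.6 ± 2.51, and Hsd17b7, at 38.00 ± 4.02 and 44.2 ± 8.67. The last reductase, Dhcr7, stood at 48.3 ± 5.25 and 41.5 ± 6.70 CPM and the desaturase Sc5d at 124 ± 2.11 and 112 ± 9.48; Sc5d alone of these did not overlap and was lower in every control EAE library, without being called (log2 fold change -0.15, SE 0.114, adjusted p = 0.306). Of the SREBP genes, Srebf2, the factor that acts most on sterol synthesis, stood at 223 ± 49.4 and 228 ± 17.97 CPM and its escort Scap at 83.3 ± 6.84 and 86.1 ± 2.63. Neither was called, with differences of 0.03 (SE 0.173, adjusted p = 0.903) and 0.046 (SE 0.112, adjusted p = 0.768) in the 6 control libraries.

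Not overlapping between the control groups were 8 of 14 handling genes upward and 2 downward, and 2 of 18 synthesis genes upward and 4 downward, against 29.8% of all tested genes upward and 27% downward. The control EAE libraries differed among themselves in the synthesis genes: 16 of the 18 lay below the control basal mean in control EAE 1, 12 in control EAE 2 and 6 in control EAE 3. The median over the 23 genes of synthesis and SREBP control was -0.26, -0.17 and 0.046 on the log2 scale in these libraries, while the median over the 14 handling genes was 1.61, 1.09 and 0.99.

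**Figure D2:**
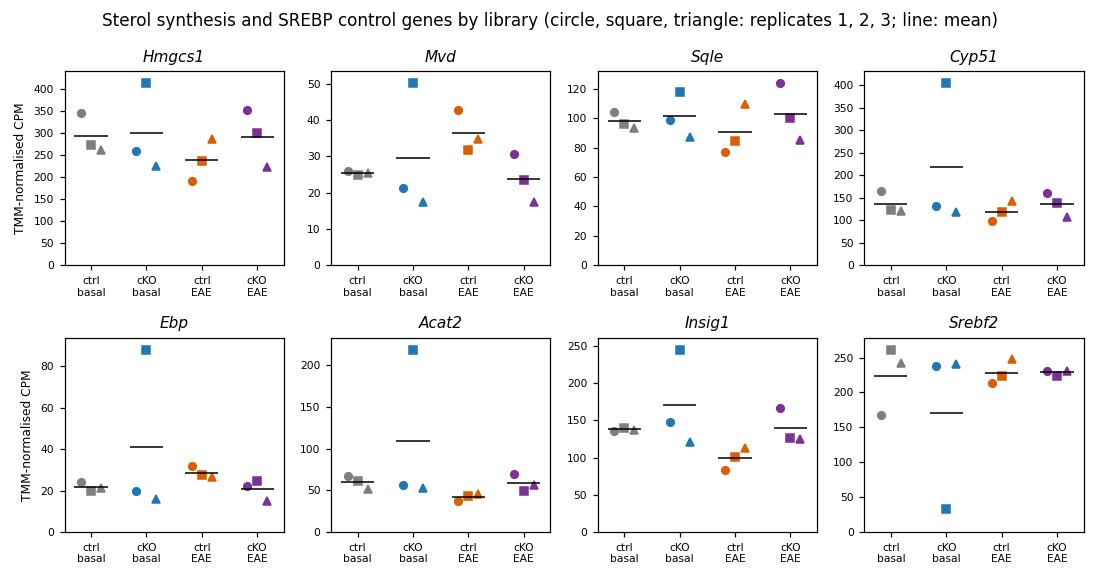
Levels of 8 genes of sterol synthesis and SREBP control in TMM-normalised CPM (linear axes from 0) in the 4 groups, with replicates 1, 2 and 3 as circle, square and triangle and the group mean as a line. Library cKO basal 2 (blue square) lies far from the other libraries in Cyp51, Ebp, Acat2 and Srebf2, and the control EAE libraries of Insig1 and Acat2 lie below the control basal ones.

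Other genes of the pathway were taken from lists that were no part of the 37. Of 8 further synthesis genes and 8 further SREBP control genes, 0 were called in control mice at EAE in the fit of 12 libraries. An unadjusted p below 0.05 was found for 1 and 2 of them, against 5323 of all 18601 genes. Of 36 further genes of uptake, storage, oxysterols and efflux, 33 were tested, 5 rose and 1 fell, where 12.1% of all genes rose and 5.05% fell. An unadjusted p below 0.05 was found for 11 of the 33, so that this list was near the share of all genes. Plin2, the coat of lipid droplets, stood at 17.4, 11.6 and 12.8 CPM in control basal and 117, 87.5 and 103 in control EAE and rose (log2 fold change 2.88, SE 0.427, adjusted p = 0.00318). The scavenger receptors Msr1 and Cd36 rose from 0.0764 ± 0.0836 and 0.274 ± 0.144 CPM to 55.2 ± 9.03 and 34.7 ± 7.03 (adjusted p = 0.00334 and 0.00429). Soat2, the second esterifying enzyme, stood at 0.119 ± 0.104 and 5.70 ± 0.722 CPM and also rose (adjusted p = 0.0107). At these basal levels Msr1, Cd36 and Soat2 passed the filter on low counts only through the EAE libraries. In neither genotype could a fall of these genes have been called. Apod, an apolipoprotein, rose and the transporter Abca5 fell, the latter from 94.4 ± 12.3 to 53.5 ± 9.31 CPM (log2 fold change -0.82, SE 0.199, adjusted p = 0.0172).

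Immune cell markers rose at EAE too. In control mice at EAE, 12 of 12 monocyte and macrophage markers, 8 of 8 microglia markers and 6 of 6 T cell markers rose. The summed macrophage markers ran from 50.1 to 77.6 CPM in control basal, 39.5 to 73.2 in cKO basal, 3780 to 6826 in control EAE and 122 to 2001 in cKO EAE, and F10 was at 0 throughout control basal. Summed microglia markers ran from 265 to 278, 208.6 to 278, 1836 to 2236 and 299.9 to 1551 CPM in the same order, with no marker at 0. Over the 6 EAE libraries, the median of the handling genes and the summed macrophage markers put the libraries in the same order, control EAE 1, 2 and 3, then cKO EAE 2, 1 and 3. The microglia and T cell sums did not give this order. In control EAE 1, 2 and 3 they were 2236, 1836 and 1883 CPM and 87.6, 82.0 and 90.1 CPM. Not every handling gene followed the median: Ch25h stood at 14.1, 21.3 and 32.5 CPM in these libraries. Of 12 oligodendrocyte markers 1 fell and 0 rose in control mice, with sums of 24725 to 25957 CPM in control basal and 13712 to 17348 in control EAE, and 5 of 8 neuron markers fell. The part of these cells in the gene results was not tested, and in bulk tissue fewer cells of a type and less RNA per cell cannot be told apart. Of the other lists, 4 of 4 tested fibroblast and meninges markers, 1 of 5 endothelial and 1 of 5 Schwann cell markers rose, 2 of 10 astrocyte markers rose and 3 fell, 0 of 3 erythrocyte and 0 of 2 skeletal muscle markers were called, and the adipocyte markers, which would bear on Lpl, summed to at most 1.64 CPM in any library.

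**Figure D3:**
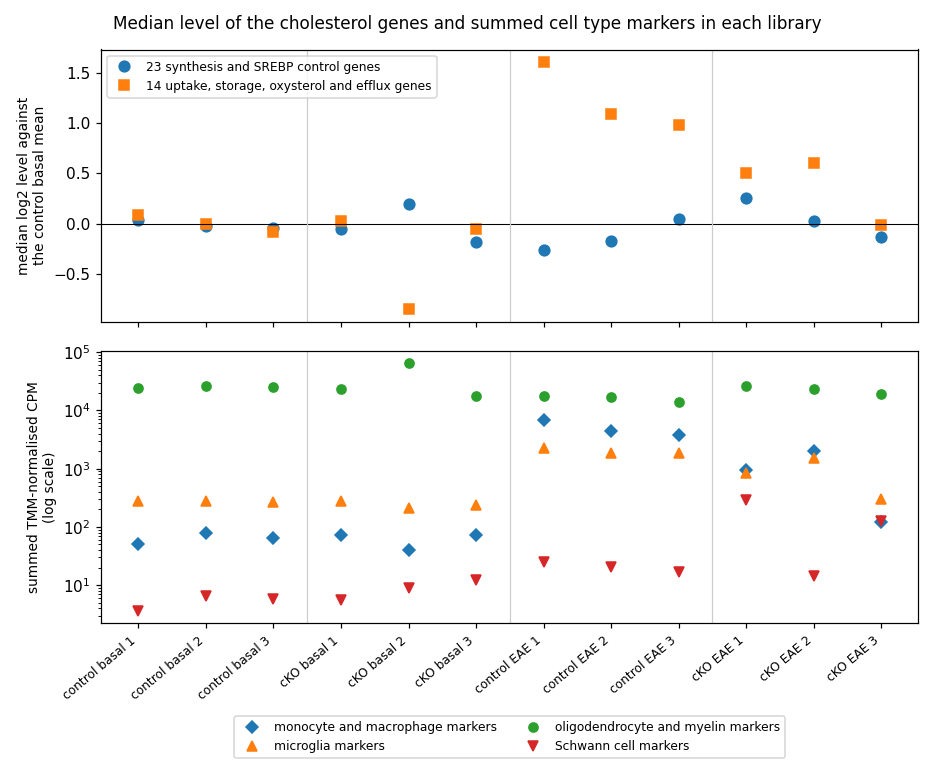
Upper panel, median log2 level against the control basal mean in each of the 12 libraries, for the 23 genes of synthesis and SREBP control and the 14 handling genes; lower panel, summed TMM-normalised CPM of 4 marker lists on a log axis. The handling genes reach 0.99 to 1.61 in the control EAE libraries and 0.50, 0.60 and -0.013 in the cKO EAE libraries, and the macrophage markers put the 6 EAE libraries in the same order.

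In cKO mice with all 12 libraries in the fit, 0 of the 37 genes were called at EAE against basal, as 0.0376% of all genes were. An unadjusted p below 0.05 was found for 7 of the 37, against 3643 of all 18601 genes. DESeq2 called 3 handling genes, against 6.66% of all genes. Limma voom called 7 handling and 4 synthesis or SREBP control genes, against 19.6% of all genes. No overlap between the cKO groups was found for 5 of 14 handling genes, higher at EAE (Abca1, Mylip, Lipa, Ch25h and Soat1), and for 2 synthesis genes higher and 1 lower, against 9.8% of all tested genes higher and 5.78% lower. Without cKO basal 2 and cKO EAE 3, 6 handling genes rose and 1 fell, against 10.8% of all genes that rose and 3.51% that fell. Of the 23 genes of synthesis and SREBP control 0 were called, and 5 had an unadjusted p below 0.05, against 4997 of all 18956 genes. Leaving out cKO EAE 3 alone gave 3 calls, Abca1, Mylip and Ch25h, with 5.63% of all genes called. The fit without both holds 2 libraries in each cKO group. Abca1, at 56.01 and 57.7 CPM in the remaining basal libraries and 104 and 176 at EAE, rose 2.44-fold (log2 fold change 1.29, SE 0.264, adjusted p = 0.00521). Ch25h rose (log2 fold change 5.03, SE 0.635, adjusted p = 0.000128), as did Lpl (log2 fold change 2.01, SE 0.305, adjusted p = 0.000569) and Mylip (log2 fold change 1.36, SE 0.218, adjusted p = 0.000852). Npc2 rose by 1.12 (adjusted p = 0.00732) and Soat1 by 0.61 (adjusted p = 0.0205). Cyp46a1 fell (log2 fold change -0.63, SE 0.132, adjusted p = 0.00609), from 55.3 and 64.7 to 36.7 and 41.5 CPM. Lipa and Nr1h3, called in control mice, differed by 0.54 (SE 0.199, adjusted p = 0.0954) and 0.54 (SE 0.251, adjusted p = 0.199).

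The synthesis genes of these cKO libraries lay mostly on the upper side. Without the 2 libraries, 16 of the 18 had a positive log2 fold change, with a median of 0.27 against -0.010 over all genes, and 13 of the 18 had both EAE libraries above both basal ones, against 31% of all tested genes. With all libraries 9 of the 18 were positive. The values of Hmgcs1 were 261 and 226 CPM at basal and 353 and 301 at EAE, a difference of 0.41 (SE 0.201, adjusted p = 0.22). Sums of the macrophage markers were 72.6 and 73.2 CPM in these basal libraries and 950.1 and 2001 in these EAE libraries, where 12 of 12 of the markers rose; 8 of 8 microglia markers and 6 of 6 T cell markers rose too. Of the oligodendrocyte markers 1 of 12 rose, at sums of 23427.5 and 17886 CPM at basal and 26016 and 23687 at EAE. Schwann cell markers summed to 287 CPM in cKO EAE 1 and to 128 in cKO EAE 3, against 3.62 to 24.9 in the 10 other libraries. Among the further pathway genes 6 of 33 tested handling genes rose, where 10.8% of all genes did. They were Plin2 (log2 fold change 1.65, SE 0.252, adjusted p = 0.000616), Msr1, Cd36, Soat2, Apod and the scavenger receptor Scarb1. Of 16 further synthesis and control genes 0 were called.

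**Figure D4:**
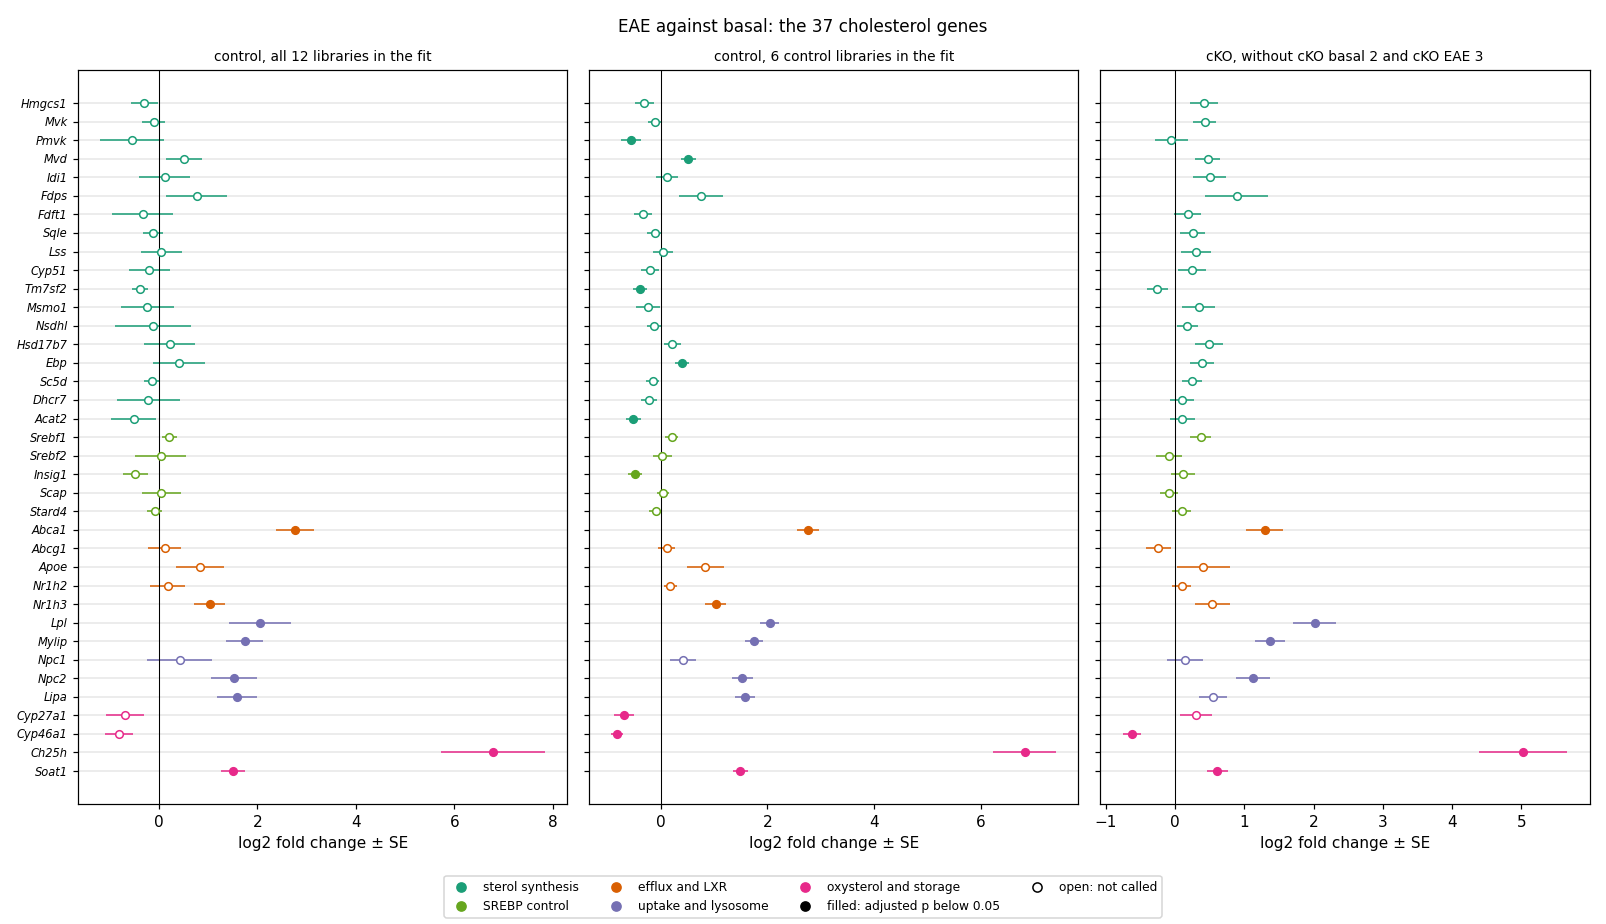
Log2 fold change of EAE against basal (point) with its SE (bar) for the 37 genes, in control mice with all 12 libraries in the fit, in control mice with the 6 control libraries alone, and in cKO mice without cKO basal 2 and cKO EAE 3; the horizontal scales differ between panels, filled points have an adjusted p below 0.05 and open points do not. The filled points on the right are handling genes except Mvd and Ebp in the middle panel.

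Whether the 2 genotypes differ in their response was tested as the difference of the EAE responses, cKO minus control. By edgeR's test 0 of the 37 genes and 0 of 18601 genes were called with all libraries. An unadjusted p below 0.05 was found for 3 of the 37, against 1697 of all 18601 genes. DESeq2 called 77 genes, none of the 37. Limma voom called 2999 genes (16.1%), among them 4 of the 14 handling genes and 4 of the 23 others. Without cKO basal 2 and cKO EAE 3 the count stayed 0 of 37, and the smallest adjusted p among them were those of Abca1 (log2 fold change -1.48, SE 0.338, adjusted p = 0.0943), Soat1 (log2 fold change -0.89, SE 0.202, adjusted p = 0.0943) and Lipa (log2 fold change -1.05, SE 0.256, adjusted p = 0.0969). For Lpl the difference in that fit was -0.041, with a 95% interval of -0.89 to 0.81. Over the 18 synthesis genes the median difference was 0.36, with 16 positive, and over the 14 handling genes -0.40, with 12 negative, beside -0.058 over all genes. Both responses share no libraries, but the fit shares its estimate of spread.

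At EAE itself, where libraries of both genotypes carried Ddx3y and so were alike in sex, 1 of the 14 handling genes, Soat1, was lower in the cKO, and 0 of the 23 genes of synthesis and SREBP control were called. This comparison used the 6 EAE libraries alone, and 7.67% of 17914 genes were called, 1.54% of all genes being lower and 6.13% higher in the cKO. Soat1 stood at 135 ± 22.2 CPM in the control and 70.5 ± 16.8 in the cKO libraries (mean ± SD, n = 3) and was 1.87-fold lower (log2 fold change -0.90, SE 0.199, adjusted p = 0.0482). Just short of the threshold were Lipa, at 83.2 ± 20.4 and 42.8 ± 8.56 CPM (log2 fold change -0.92, SE 0.218, adjusted p = 0.0514), and Abca1, at 316 ± 77.2 and 113 ± 59.2 CPM (log2 fold change -1.45, SE 0.394, adjusted p = 0.0635). In all, 12 of the 14 handling genes had a negative log2 fold change, with a median of -0.79 against -2e-04 over all genes. Of the 14, 9 had an unadjusted p below 0.05, against 6432 of all 17914 genes. The libraries did not overlap in 8 that were lower in the cKO (Abca1, Nr1h2, Nr1h3, Mylip, Npc2, Lipa, Ch25h and Soat1) and in 2 that were higher (Cyp27a1 and Cyp46a1), where 25.8% and 20.8% of all tested genes did not overlap downward and upward.

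The call of Soat1 rests on each of 4 libraries. It was lost on leaving out control EAE 1 (log2 fold change -0.76, adjusted p = 0.170), control EAE 2 (-0.97, 0.118), control EAE 3 (-0.97, 0.154) or cKO EAE 1 (-0.93, 0.138), and in each of these fits 0 genes of the whole table were called. It was kept without cKO EAE 2 or cKO EAE 3, at -1.07 and -0.73. Without cKO EAE 2, Abca1 (-1.91, adjusted p = 0.0276) and Lipa (-1.04, adjusted p = 0.0422) passed as well, among 3418 genes called. Without cKO EAE 3, 18.2% of all genes were called, 9.1% lower and 9.11% higher, and among the 37 genes Soat1 (log2 fold change -0.73, SE 0.147, adjusted p = 0.0188), Abca1 (log2 fold change -1.14, SE 0.261, adjusted p = 0.0248) and Lipa (log2 fold change -0.77, SE 0.189, adjusted p = 0.0294) fell. Ch25h, Npc2 and Mylip were not called, at -1.01 (SE 0.318, adjusted p = 0.0615), -0.70 (SE 0.236, adjusted p = 0.0764) and -0.54 (SE 0.195, adjusted p = 0.0907).

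Sterol synthesis genes lay on the other side at EAE. With all 6 EAE libraries 16 of the 18 were higher in the cKO, with a median of 0.24, and 0 were called. The exceptions were Mvd at -0.57 and Ebp at -0.44, the 2 synthesis genes that rose in the fit of the 6 control libraries. Both comparisons share the control EAE libraries. Of the 18, 3 had an unadjusted p below 0.05, against 6432 of all 17914 genes. DESeq2 called 2 of the 23 genes of synthesis and SREBP control, against 23.1% of all genes. Limma voom called 8 of the 23, against 32.3% of all genes. Insig1 stood at 83.9, 101 and 112 CPM in control EAE and 167, 126 and 125 in cKO EAE, without overlap (log2 fold change 0.54, SE 0.166, adjusted p = 0.0794). Without cKO EAE 3 it was called higher in the cKO (log2 fold change 0.61, SE 0.164, adjusted p = 0.0383). Sc5d (ENSMUSG00000032018, chromosome 9, 42251595 to 42264256, minus strand), a late desaturase of the pathway, stood at 102, 113 and 121 and 160.4, 135 and 120.4 CPM and was also called there (log2 fold change 0.44, SE 0.122, adjusted p = 0.0424), while with all libraries it was not (log2 fold change 0.35, SE 0.134, adjusted p = 0.12). Insig1 and Sc5d were the 2 of the 23 genes called without cKO EAE 3, near the share of all genes called higher there, 9.11%. Acat2, at 36.7, 43.4 and 45.8 and 69.3, 49.4 and 56.1 CPM, did not overlap either but was not called in either fit (adjusted p = 0.0823 and 0.0591). The 3 cKO EAE libraries did not agree among themselves: 16 of the 18 synthesis genes lay above the control basal mean in cKO EAE 1, 10 in cKO EAE 2 and 4 in cKO EAE 3.

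**Figure D5:**
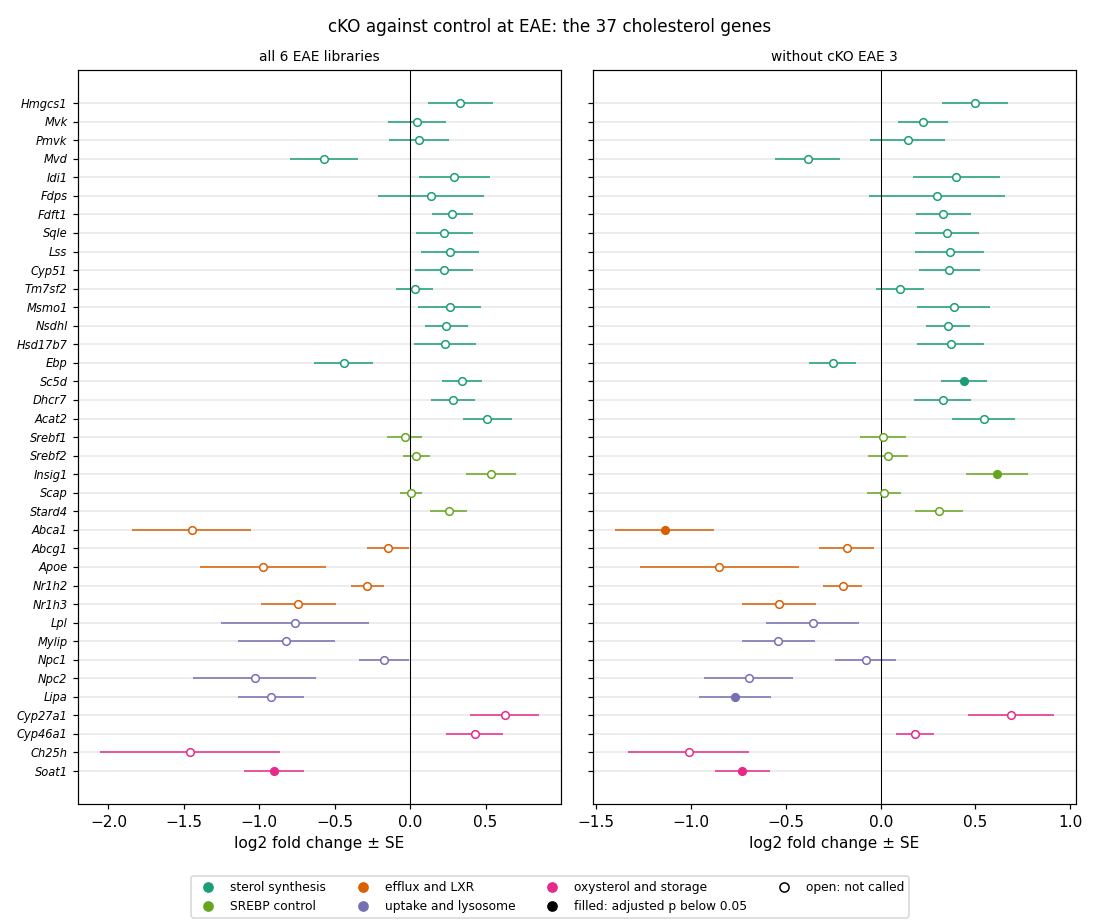
Log2 fold change of cKO against control at EAE (point) with its SE (bar) for the 37 genes, with all 6 EAE libraries (left) and without cKO EAE 3 (right); filled points have an adjusted p below 0.05. On the left Soat1 alone is filled, 16 of 18 synthesis genes lie above 0 and 12 of 14 handling genes lie below it.

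Of the further pathway genes at EAE, Erlin1, which encodes a protein of the endoplasmic reticulum membrane, was lower in the cKO (log2 fold change -0.82, SE 0.141, adjusted p = 0.044), as was the sterol carrier Gramd1a (log2 fold change -0.44, SE 0.0848, adjusted p = 0.044). The transporters Abca5 (log2 fold change 0.96, SE 0.176, adjusted p = 0.044) and Abca2 (log2 fold change 0.65, SE 0.134, adjusted p = 0.0454) were higher, at 551 ± 51.6 CPM in control EAE and 845 ± 87.7 in cKO EAE for Abca2. That makes 0 of 8 synthesis genes called, 1 of 8 control genes lower, and 2 of 33 handling genes higher and 1 lower. Over all genes 6.13% were called higher and 1.54% lower, so that the handling genes were near these shares. Without cKO EAE 3, 4 of the 33 further handling genes were called higher in the cKO, Abca5, Abca2, Abcg4 and Cyp39a1 (0.84, 0.69, 0.39 and 0.73). Another 4 were called lower, Plin2, Msr1, Cd36 and Gramd1a (-1.22, -1.45, -1.34 and -0.41). Of the further synthesis genes 2 of 8 were higher, and of the control genes 1 of 8, Erlin1, was lower (-0.74). In that fit 9.11% of all genes were called higher and 9.1% lower. Markers moved here as well: with all 6 libraries 0 of 12 macrophage markers were called but 12 of 12 were lower, with a median of -2.53, and without cKO EAE 3, 11 of 12 fell. Of the 12 oligodendrocyte markers 2 were called higher in the cKO with all libraries and 9 without cKO EAE 3, at sums of 13712 to 17348 CPM in control EAE and 19053 to 26016 in cKO EAE. Neuron markers were called higher in 5 of 8 and astrocyte markers in 4 of 10, and 0 of 8 microglia markers were called, all 8 being lower (median -1.06). Schwann cell markers summed to 287, 14.1 and 128 CPM in cKO EAE 1, 2 and 3, and to 16.9 to 24.9 in control EAE. The part of these cells in the difference between genotypes was not tested.

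Without disease, 0 of the 36 cholesterol genes tested were called between cKO and control, as 0 of 17133 genes were. An unadjusted p below 0.05 was found for 0 of the 36, against 31 of all 17133 genes. DESeq2 called 1 gene, none of the 37. Ch25h was too low to be tested there. Not overlapping were Stard4, higher in every cKO basal library, and Mylip and Cyp27a1, lower in every one, against 2.18% of all tested genes higher and 3.68% lower. The median log2 fold change was 0.043 over the synthesis genes and -0.17 over the handling genes, with SEs of 0.19 to 1.03. Without cKO basal 2 again 0 genes were called, and the log2 fold changes of the synthesis genes then ran from -0.40 (Pmvk) to 0.12 (Fdps). Of the 18, 14 were negative, with a median of -0.10 against -0.0012 over all genes, and 1 had an unadjusted p below 0.05, against 388 of all 17549 genes. Hmgcs1, Mvk, Pmvk, Mvd and Ebp lay below every control library in both remaining cKO libraries and 0 synthesis genes lay above, against 10.7% and 9.78% of all tested genes; these cKO libraries are also the basal side of the cKO response and of the difference of responses given above. Of the 14 handling genes, 4 lay above every control library in both remaining cKO libraries (Abca1, Abcg1, Lipa and Soat1). Another 4 lay below (Apoe, Mylip, Npc2 and Cyp27a1), beside the same shares of all tested genes. A higher cKO basal level makes the difference of responses more negative, and Abca1, Soat1 and Lipa had its smallest adjusted p. Apoe stood at 1143 and 917 CPM in the remaining cKO libraries, below the 3 control libraries (log2 fold change -0.47, SE 0.182, adjusted p = 0.954). Of the further pathway genes 0 were called either.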

How the data were processed

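Total RNA of whole spinal cord was sequenced in 12 libraries. The authors deposited raw counts per gene for every library in one table; per the submitters' processing notes, HISAT2 2.0.5, featureCounts 1.5.0-p3 and mm10 were used. For the strand setting, reads with several matches and the annotation release, no source used here gives a statement.

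Counts were tested as deposited with edgeR 4.0.16 (quasi-likelihood F test, TMM factors, filterByExpr, Benjamini-Hochberg adjustment over all genes tested) in R 4.3.3. Both EAE responses and their difference came from 1 fit of 12 libraries, and each comparison of genotypes from the 6 libraries of its state; the fit was tested on simulated data. SE is the log2 fold change divided by the root of F. Library medians used log2(CPM + 0.5). RPKM used the gene length in the deposited table, and shared windows of 50 bases were counted on the transcripts of GENCODE M21. Alternatives were DESeq2 1.42.0, its size factors, limma 3.58.1 voom, no filter, other sets of libraries and each library left out; the fit of 10 libraries between genotypes was chosen after seeing the data.

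The members, the lists of further genes and markers and the alternatives were chosen with earlier results of these data known. All members could be named, with values by library for those called, for the 3 of smallest p in a role class where fewer were called, and for Apoe and Cyp46a1; of the further genes, up to 4 of each list by smallest p in a comparison were named. Apod, Abca5 in control mice, Scarb1, Abcg4 and Cyp39a1 fall outside that rule and were named after their values were seen. Whether replicates came from separate mice or litters is known only from the label biological replicate, so p-values measure the spread between these libraries.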

Additional observations from a re-analysis of the deposited data

Results flagged for a closer look

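In 3 of the 37 genes all control EAE libraries lay on one side of the control basal mean while all cKO EAE libraries lay on the other side of the cKO basal mean. The difference of the responses, cKO minus control, was tested with edgeR in the fit of 12 libraries and was not called for any of them. For Ebp it was -1.39 (SE 0.75, adjusted p = 0.587), with control libraries at 0.29 to 0.55 and cKO libraries at -0.99 to -0.29 on the log2 scale. For Scap it was -0.98 (SE 0.56, adjusted p = 0.600), with libraries at 0.019 to 0.099 and at -0.69 to -0.66. For Cyp27a1 it was 1.31 (SE 0.54, adjusted p = 0.547), with libraries at -1.11 to -0.33 and at 0.62 to 1.05. Library cKO basal 2 lay more than 2-fold outside the other 5 basal libraries in all 3 genes, at 87.6 CPM against 19.5 and 15.9 in cKO basal 1 and 3 for Ebp, 305 against 86.4 and 92.5 for Scap, and 13.3 against 47.7 and 34.9 for Cyp27a1. Measured from the cKO basal mean without it, the cKO EAE libraries lay at -0.23 to 0.47 for Ebp, at -0.11 to -0.067 for Scap and at 0.089 to 0.53 for Cyp27a1, so that the value farthest from 0 was closer to it in all 3 genes, and the opposite sign remained in Scap, where it was small, and in Cyp27a1, but not in Ebp.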

How the results depend on the processing

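The counts of genes called depended on the method and on which libraries were in the fit; the cause was not tested. In control mice at EAE, 3183 genes in all, 0 of 23 synthesis and SREBP control genes and 8 of 14 handling genes were called. The first count was 4483 with DESeq2, 11120 with limma voom, 8673 without cKO basal 2 and cKO EAE 3 and 8149 with the 6 control libraries. The second was 1 with DESeq2, 7 with voom and 6 in both smaller sets. Leaving out 1 library gave 1724 to 8166, 0 to 4 and 3 to 10. In cKO mice 7, 0 and 0 became 493, 0 and 1 with no filter, 1239, 0 and 3 with DESeq2, 3648, 4 and 7 with voom and 2715, 0 and 7 without both libraries; the 6 cKO libraries alone gave 0 genes. Leaving out 1 gave 5 to 1075, 0 and 0 to 3. For the difference of responses (0, 0, 0) DESeq2 gave 77, 0 and 0 and voom 2999, 4 and 4; each omission gave 0.

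At EAE, cKO against control gave 1374, 0 and 1. DESeq2 gave 4131, 2 and 9, and voom 5790, 8 and 6. With no filter 1616 genes in all and 3 handling genes were called. The fit of 12 libraries gave 0, 0 and 0, and the fit of 10 libraries 2268, 1 and 4. Leaving out 1 gave 0 to 3418, 0 to 2 and 0 to 3. At basal DESeq2 called 1 gene and each omission 0. Single genes lost were Nr1h3 in control mice with no filter (adjusted p = 0.107) and Soat1 at EAE with 12 libraries (0.201). In cKO mice the log2 fold change of Npc2 turned to -0.013, -0.12 and -0.23 without cKO basal 1, cKO basal 3 and cKO EAE 2 (0.79 without cKO basal 2), and that of Cyp46a1 to 0.0030, 0.13 and 0.030 without cKO basal 1, cKO basal 3 and cKO EAE 1 (-0.38 without cKO EAE 3). Over the alternatives run for single genes (17 genes for control mice at EAE, 7 for cKO mice and 5 between genotypes at EAE), 405 values kept direction and call, 73 passed the threshold newly, 37 lost it and 6 reversed.

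Replicate numbers did not pair the libraries: over 18 pairs the correlation of deviations ran from -0.51 to 0.42, with 4 over 0.1, and 15 of 36 best matches had the same number. With a replicate block, 2509 genes and 7 of 14 handling genes were called in control mice (Nr1h3 adjusted p = 0.0502), 5 genes in cKO mice, and 0 genes and 0 handling genes between genotypes at EAE (Soat1 adjusted p = 0.132); the block changed no other call. Depth limits Ch25h and Fdps, the genes with the fewest counts.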
